A study of Mus musculus with 6 samples.

Results

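The genes described here are 31 genes of the NRF2 response, of glutathione metabolism and of the antioxidant enzymes, out of 54532 genes in the table. They were taken by symbol from a list, each symbol matched exactly 1 row, and all 31 passed the filter on low counts. RNA was sequenced from 6 libraries of mouse bone marrow-derived macrophages, which are macrophages grown in culture from marrow precursors. The 3 XWT libraries came from Xbp1FL/FL mice, whose Xbp1 alleles carry sites for recombination, and the 3 XKO libraries from Xbp1ΔMf mice, which by their label lack Xbp1 in macrophages. All mice were C57BL/6 and 32 to 34 weeks old, and the labels do not name the Cre driver behind the deletion. Cells of both genotypes received lipopolysaccharide (LPS) first and hepatocyte-conditioned medium for 48 h afterwards, the hepatocytes being primary and wild-type, so every library shares the LPS and the hepatocyte products. Whether the samples of one genotype came from separate animals or cultures is not in the labels. The p-values therefore measure spread among the 3 samples of each genotype only, and that spread may be technical.

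NRF2, encoded by Nfe2l2, is a transcription factor that KEAP1 binds in the cytosol and delivers for degradation. Oxidants and electrophiles modify KEAP1, NRF2 then builds up and, with a small MAF protein, binds antioxidant response elements near the genes of glutathione synthesis, the thioredoxin system, NADPH supply and heme breakdown. In macrophages these enzymes dispose of the peroxides and quinones formed during inflammatory activation. XBP1 serves another stress pathway, the unfolded protein response: IRE1, a sensor in the endoplasmic reticulum (ER), splices the Xbp1 RNA so that it encodes an active factor.

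In XKO macrophages the enzymes that make and recycle glutathione, the thioredoxin reductase gene, the sulfiredoxin gene and the quinone reductase gene Nqo1 were higher, each by less than 2-fold. Of the 31 genes 9 rose and 1 fell. Those that rose were Nqo1, Gclc, Gclm, Gss, Gsr, Txnrd1, Srxn1, Prdx6 and Sod2, with fold changes from 1.20 for Prdx6 to 1.58 for Nqo1, and the 1 that fell was the ER peroxiredoxin gene Prdx4, 1.36-fold lower. A gene was called when its adjusted p was under 0.05 (edgeR quasi-likelihood test over 14333 genes, Benjamini-Hochberg adjustment). By that rule 6.00% of all tested genes were higher in XKO and 7.99% lower, against 29.0% and 3.23% of the 31. The median log2 fold change was 0.16 over the 31 and 0.00 over all tested genes. The 31 genes were chosen with earlier results of these data known, so these contrasts are a description and not a test.

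**Figure D1:**
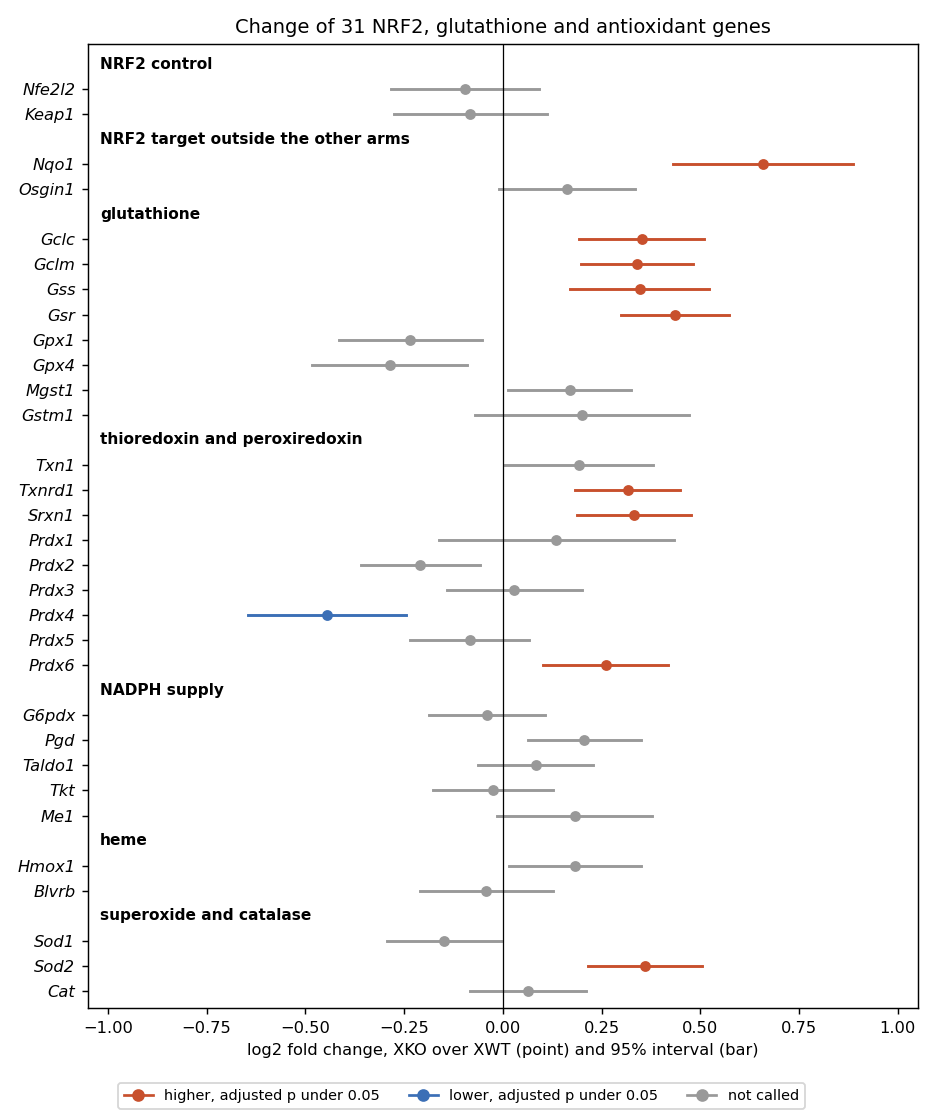
Log2 fold change of XKO over XWT for each of the 31 genes, grouped by arm, with 95% confidence intervals from the edgeR fit (3 libraries per genotype); red genes were called higher, the blue gene lower and grey genes were not called. The 9 red intervals lie above 0 and the interval of Prdx4 lies below it, while those of Nfe2l2 and Keap1 span 0.

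The libraries held 28354866 to 30891729 counts. Xbp1 itself was lower in every XKO library, at 76.8, 79.4 and 76.6 CPM against 158.5, 156.7 and 131.6 CPM in XWT 1 to 3 (CPM is the count per 1000000 counts of the TMM-scaled library total). Since this count covers the whole gene, it is a partial check of the genotype labels. Macrophage markers were abundant in both genotypes, with Adgre1 at a mean of 6614 CPM in XWT and 5750 CPM in XKO and Csf1r at 3912 and 3645 CPM, while Lyz2 fell from 31140 to 14270 CPM. All 12 listed macrophage markers were tested, and 1, Lyz2, was called lower. Their sum was 41470 to 49740 CPM in XWT and 27170 to 28920 CPM in XKO, with Lyz2 the largest part. Of 13 listed fibroblast and stromal markers, 11 were tested and 10 were lower in XKO. The summed level of the 13 was 699.5 to 813 CPM in XWT and 68.0 to 83.7 CPM in XKO. Col1a1, Col1a2 and Sparc had the highest XWT means (277.1, 187.5 and 94.8 CPM). No marker was at 0 in all libraries, but several were near it. Pdgfra, Dcn and Fap had XWT means of 1.86, 1.14 and 0.61 CPM, and Thy1 and Lum of 0.079 and 0.012 CPM. Of 10 listed neutrophil markers, 8 were tested and 7 were higher, with sums of 30.9 to 39.9 CPM in XWT and 61.5 to 65.2 CPM in XKO. Lcn2 and Mmp8 had the highest means and made up most of these sums. They were at 13.4 and 11.7 CPM in XWT and 25.7 and 20.1 CPM in XKO. None of the 10 was at 0 in all libraries, but Camp, Mpo, Elane and Cxcr2 had means of at most 0.83 CPM in either genotype. The stromal and neutrophil lists and the macrophage sum moved between the same groups as the results below, and their part in them was not tested. In these bulk samples a change in cells of a type, in RNA per cell or in the macrophages themselves cannot be told apart. Of 10 hepatocyte markers, 9 including Alb were at 0 in all 6 libraries, and the remaining one, Ass1, is also made by macrophages. Ass1 was called higher in XKO, with means of 59.8 CPM in XWT and 78.4 CPM in XKO (log2 fold change 0.39). Markers of T, NK and B cells, of erythroid cells and of mast cells and basophils each summed to at most 1.26 CPM. Dendritic cell markers summed to 48.3 to 54.3 CPM in XWT and 51.0 to 60.9 CPM in XKO, with 0 of 4 tested called. Nearly all of this was Itgax, with means of 49.7 CPM in XWT and 54.9 CPM in XKO. The other dendritic cell markers had means of at most 0.68 CPM. Endothelial markers summed to 87.8 to 95.2 and 93.0 to 99.2 CPM, most of it Vwf, with means of 78.7 CPM in XWT and 86.05 CPM in XKO. Of these markers 1 of 4 tested, Pecam1, which leukocytes also make, was lower (log2 fold change -0.54). Spread was wider in XWT: the median coefficient of variation over the 31 genes was 8.02% in XWT and 3.15% in XKO, and 28 of the 31 were more variable in XWT. Over all tested genes the medians were 10.6% and 5.28%, and 10888 of 14333 were more variable in XWT.

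The transcripts of the controllers themselves were at similar levels in both genotypes and were not called. Nfe2l2 (ENSMUSG00000015839, protein-coding, chromosome 2 from 75675513 to 75704641, minus strand) stood at 252.8, 197.6 and 201.8 CPM in XWT 1 to 3 and at 197.6, 204.5 and 208.0 CPM in XKO 1 to 3. XWT 1 was the high library and the other 5 lay within a narrow range. The log2 fold change of Nfe2l2 was -0.10 with a 95% interval from -0.28 to 0.09 (edgeR adjusted p = 0.486). Keap1 (ENSMUSG00000003308, chromosome 9 from 21229730 to 21239361, minus strand) stood at 67.8, 89.0 and 73.1 CPM in XWT and 74.2, 69.5 and 73.4 CPM in XKO, with XWT 2 the highest and the groups overlapping. Its log2 fold change was -0.08, with an interval from -0.28 to 0.11 (adjusted p = 0.569), and turned positive without XWT 2 (0.04) and with length and GC trends removed (0.06). That of Nfe2l2 turned to 0.02 without XWT 1. These are RNA levels, and NRF2 activity is set largely by the stability of the protein, which was not measured.

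Nqo1 (ENSMUSG00000003849, chromosome 8 from 107388225 to 107403206, minus strand) had the largest rise of the 31. It encodes an enzyme that reduces quinones with NADPH or NADH and is widely used as a readout of NRF2. Its level was 19.5, 17.3 and 15.1 CPM in XWT and 27.7, 29.7 and 24.5 CPM in XKO. Every XKO library lay above every XWT library. The log2 fold change was 0.66 ± 0.11 (SE), and the edgeR adjusted p of 0.00107 stayed under the threshold without any 1 library (0.57 to 0.75). Osgin1, an oxidative stress-induced growth inhibitor gene that NRF2 can induce, stood at 26.9, 31.1 and 28.4 CPM in XWT and 33.5, 31.2 and 32.0 CPM in XKO. Its highest XWT value lay just under its lowest XKO value, and its log2 fold change of 0.16 (interval -0.01 to 0.33) was not called (adjusted p = 0.189), although it was with length and GC trends removed (0.32).

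Groups that did not overlap were common in this comparison. Among the 31 genes, 12 had all XKO values above all XWT values and 5 had all below, against 17.5% and 18.6% of all tested genes. All 10 called genes were among these 17, and the other 7 were Osgin1, Txn1 and Pgd above and Gpx1, Gpx4, Prdx2 and Sod1 below.

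Because several of the genes rose together and NRF2 acts through a short DNA element, the promoters were searched for the core of that element, TGACNNNGC, on both strands. The windows run from 250 bases before to 50 bases after each transcript start, come from RefSeq on GRCm38.p6, and cover 27 of the 31 genes in 37 windows (Gclc, Gsr, Prdx6 and Hmox1 had no entry). Stretches of 4 promoters with a match are shown so that the element can be seen in its surroundings, 2 from genes that rose (Gclm and Txnrd1) and 2 from genes that were not called (Prdx1 and Sod1). The capitals mark the match, which in all of them lies on the strand opposite to the gene.
Gclm: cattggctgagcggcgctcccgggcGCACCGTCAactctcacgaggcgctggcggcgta
Txnrd1: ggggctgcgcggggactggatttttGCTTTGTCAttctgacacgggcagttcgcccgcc
Prdx1: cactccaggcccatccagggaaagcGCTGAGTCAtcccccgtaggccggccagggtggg
Sod1: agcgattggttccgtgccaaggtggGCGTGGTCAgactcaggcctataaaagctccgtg
The stretches lie on the plus strand at chr3:122245398-122245456, chr10:82859089-82859147, chr4:116685441-116685499 and chr16:90220681-90220739, upstream of the transcript start used, and none overlaps an exon of GENCODE M21. The Gclm match covers bases 134 to 126 before the start, that of Txnrd1 bases 92 to 84 before a downstream start of that gene, that of Prdx1 bases 133 to 125 and that of Sod1 bases 56 to 48.

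Matches were found at 10 genes, the other 6 being Nfe2l2, Mgst1, Srxn1, G6pdx, Pgd and Me1. They were in 10 of the 37 windows (27.0%), against 12.4% of all 32851 windows in the RefSeq table. Some genes have several windows. The genes were chosen as genes of the NRF2 response and of antioxidant enzymes, so these shares are not a test of NRF2 binding. The choice was also made with earlier results of these data known. By outcome, 3 of the 6 searched genes that rose and 7 of the 20 searched genes that were not called held a match. Windows of this length leave out more distant elements, and a match is a description of letters, not a bound site. The ER stress response element, CCAAT followed after 9 bases by CCACG, was searched on both strands in the same windows. It was in none of the 37 windows and in 0.119% of all windows. An element this rare would seldom occur in 37 windows, so its absence says little about these genes.

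Glutathione is made by joining glutamate to cysteine and then adding glycine, and its oxidised form is recycled with NADPH. All 4 enzyme genes of these steps rose, each by 1.27 to 1.35-fold. Gclc (ENSMUSG00000032350, chromosome 9 from 77754535 to 77794485, plus strand), the catalytic subunit of the rate-limiting glutamate-cysteine ligase, stood at 62.2, 53.0 and 58.8 CPM in XWT and 77.0, 73.1 and 71.9 CPM in XKO. Gclm (ENSMUSG00000028124, chromosome 3 from 122245557 to 122270732, plus strand), the modifier subunit whose promoter is shown above, stood at 396.6, 358.6 and 376.7 CPM in XWT and 458.5, 495.4 and 478.9 CPM in XKO. For both subunits the lowest XKO library was above the highest XWT library. Their log2 fold changes were 0.35 ± 0.074 (SE) and 0.34 ± 0.066 (SE), with edgeR adjusted p of 0.00670 and 0.00420. The call of Gclc ended without XKO 1 (0.32, adjusted p = 0.0551) and that of Gclm without XKO 2 (0.31, adjusted p = 0.0526).

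Gsr (ENSMUSG00000031584, chromosome 8 from 33652523 to 33698163, plus strand), the NADPH-dependent reductase of oxidised glutathione, had the smallest p of the 31. It stood at 126.6, 130.4 and 130.9 CPM in XWT and 167.1, 184.7 and 173.1 CPM in XKO. Every XKO value was above every XWT value, and the standard deviation was 2.34 CPM in XWT and 8.95 CPM in XKO. The log2 fold change of Gsr was 0.44 ± 0.064 (SE; edgeR adjusted p = 0.000507), and it was called without any 1 library (0.39 to 0.47). Gss (ENSMUSG00000027610, chromosome 2 from 155563181 to 155592810, minus strand), glutathione synthetase, stood at 21.5, 22.6 and 22.9 CPM in XWT and 28.3, 30.4 and 26.6 CPM in XKO, a log2 fold change of 0.35 ± 0.082 (SE; edgeR adjusted p = 0.0142). Its groups also did not overlap, but its value is uncertain. Acss2, an acetyl-CoA synthetase gene on the opposite strand, shares 395 of the 5915 exon bases of Gss, and no source used here says whether the counting used strand. The counts of Acss2 were 120% of those of Gss, and it rose by 0.57 on the log2 scale. The call of Gss ended without XKO 1 (0.35, adjusted p = 0.0654) or XKO 2 (0.29, adjusted p = 0.113).

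**Figure D2:**
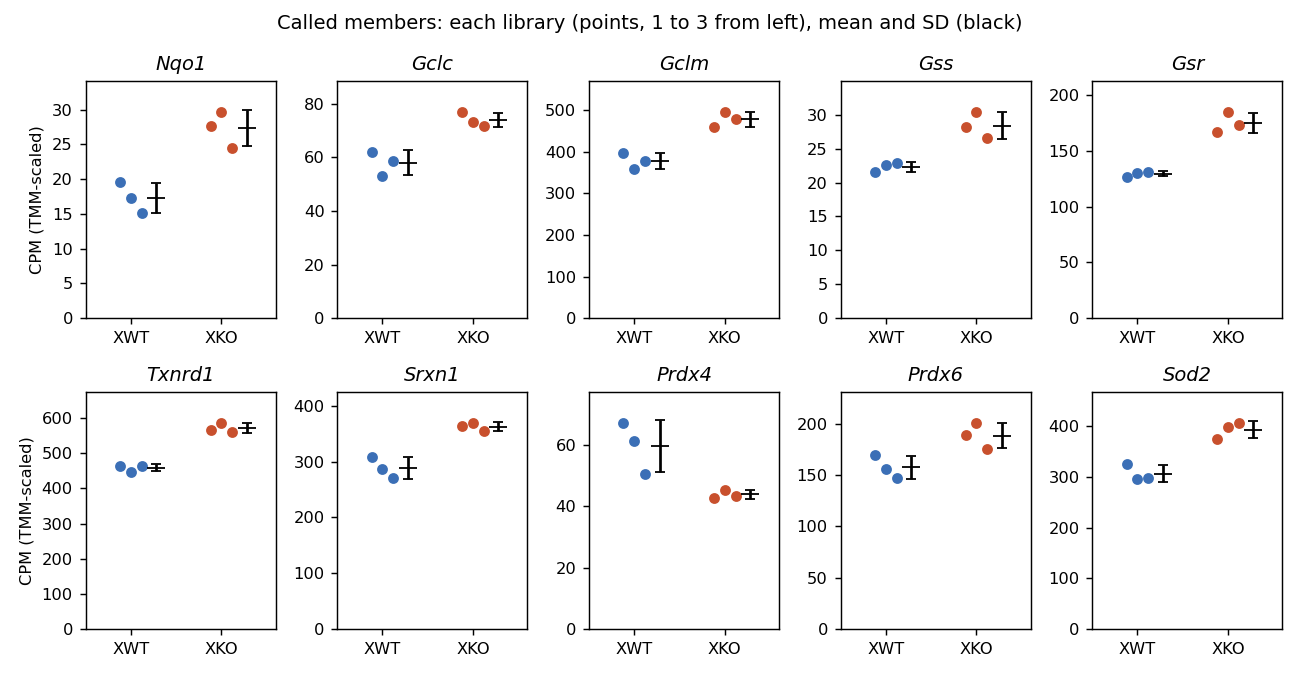
TMM-scaled CPM of the 10 called genes in each library (blue XWT, red XKO; 1 to 3 from left), with mean and SD in black beside each group (n = 3); every axis starts at 0. In each panel the groups are separate, XKO being above XWT except for Prdx4.

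The selenoenzymes that use glutathione to remove peroxides were not called, and both had negative fold changes. Gpx1, the main cytosolic glutathione peroxidase, stood at 1401, 1485 and 1165 CPM in XWT and 1163, 1158 and 1124 CPM in XKO. Gpx4, which reduces lipid peroxides in membranes and protects against ferroptosis, stood at 256.8, 229.7 and 190.5 CPM in XWT and 182.9, 185.3 and 186.7 CPM in XKO. In both genes XWT 3 sat close to the XKO libraries and XWT 1 and 2 stood well above. Their log2 fold changes were -0.23 (interval -0.41 to -0.05, edgeR adjusted p = 0.0790) and -0.29 (interval -0.48 to -0.09, adjusted p = 0.0511). Both were called lower without XWT 3 (-0.33 and -0.40), with DESeq2 (-0.23 and -0.29), without the filter on low counts, with the length trend removed and with quality weights per library. With length and GC trends removed neither was called. A processed copy, Gpx4-ps2, held 14.3% of the counts of Gpx4, and reads may be shared between them.

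The 2 glutathione transferase genes were not called either. Mgst1, a microsomal transferase, stood at 92.3, 82.1 and 79.4 CPM in XWT and 91.0, 95.4 and 99.1 CPM in XKO. Gstm1, a cytosolic mu-class transferase with close relatives on the same chromosome, stood at 184.2, 139.1 and 124.8 CPM in XWT and 165.7, 182.5 and 166.5 CPM in XKO. XWT 1 lay within or above the XKO range in both genes, while XWT 2 and 3 lay below it. Their log2 fold changes of 0.17 and 0.20 had edgeR adjusted p of 0.130 and 0.297, but both were called higher without XWT 1 (0.23 and 0.38).

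Thioredoxin is a small protein that keeps other proteins reduced, thioredoxin reductase renews it with NADPH, and peroxiredoxins pass its electrons on to peroxides. Txnrd1 (ENSMUSG00000020250, chromosome 10 from 82833951 to 82897712, plus strand), the cytosolic reductase, stood at 464.1, 447.7 and 464.3 CPM in XWT and 565.9, 587.3 and 560.5 CPM in XKO. Srxn1 (ENSMUSG00000032802, chromosome 2 from 152105516 to 152111376, plus strand), sulfiredoxin, repairs over-oxidised peroxiredoxins and stood at 308.1, 287.5 and 270.0 CPM in XWT and 364.5, 370.1 and 354.8 CPM in XKO. Neither gene had an overlap between groups, and both rose by about the same amount. Their log2 fold changes were 0.32 ± 0.062 (SE) and 0.33 ± 0.067 (SE), with edgeR adjusted p of 0.00416 and 0.00548. Both calls ended without XKO 2 (0.30, adjusted p = 0.0561, and 0.32, adjusted p = 0.0536).

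Txn1, the thioredoxin that TXNRD1 reduces, was not called. It stood at 222.6, 285.3 and 286.0 CPM in XWT and 300.9, 304.5 and 302.2 CPM in XKO, so that XWT 1 was the low library and the XKO libraries lay just above the rest. The log2 fold change was 0.19 with an interval from 0.0045 to 0.38 (edgeR adjusted p = 0.153). It was called higher with quality weights per library (0.22, adjusted p = 0.0349).

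The 6 peroxiredoxin genes did not move together: 1 rose, 1 fell and 4 were not called. Prdx4 (ENSMUSG00000025289, chromosome X from 155323918 to 155340754, minus strand) encodes the peroxiredoxin of the ER, which uses peroxide to help form disulfide bonds. It stood at 67.3, 61.3 and 50.6 CPM in XWT and 42.8, 45.4 and 43.4 CPM in XKO. All XKO values were lower and close together, whereas the XWT values spread widely. The log2 fold change was -0.44 ± 0.093 (SE; edgeR adjusted p = 0.00649), and it was called in every leave-one-out fit, with values from -0.55 to -0.35.

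Prdx6 (ENSMUSG00000026701, chromosome 1 from 161240112 to 161251219, minus strand), which unlike the others relies on glutathione and also acts on phospholipids, stood at 169.3, 155.6 and 147.1 CPM in XWT and 188.6, 200.9 and 175.7 CPM in XKO. The groups were separate by a narrow margin. Its log2 fold change was 0.26 ± 0.074 (SE; edgeR adjusted p = 0.0330). The call depended on the libraries used, ending without XWT 2 (0.25, adjusted p = 0.0785), XKO 1 (0.26, 0.125), XKO 2 (0.21, 0.197) or XKO 3 (0.31, 0.0608).

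Prdx1, the most abundant peroxiredoxin here, stood at 2866, 2110 and 1861 CPM in XWT and 2434, 2574 and 2502 CPM in XKO. XWT 1 was above and the other XWT libraries were below all XKO libraries, and the log2 fold change of 0.14 (interval -0.16 to 0.43) was not called (edgeR adjusted p = 0.529). Without XWT 1 it was called higher (0.33, adjusted p = 0.0164). The Prdx1 promoter stretch above holds the element core, as does that of Gclm, which was called.

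Prdx2, another cytosolic peroxiredoxin, stood at 248.5, 272.8 and 234.4 CPM in XWT and 212.8, 216.8 and 224.3 CPM in XKO, a log2 fold change of -0.21 that was not called (edgeR adjusted p = 0.0618). Its groups did not overlap, and it was called lower with DESeq2 (-0.21) and without XWT 3 (-0.26). Junb and Rnaseh2a overlap Prdx2 on the opposite strand, with 79.9% and 11.5% of its counts, and share 173 and 177 of its 3050 exon bases, so its value is uncertain. Prdx3, the mitochondrial peroxiredoxin, and Prdx5, found in mitochondria, peroxisomes and cytosol, had log2 fold changes of 0.03 (interval -0.14 to 0.20) and -0.08 (interval -0.24 to 0.07). Their groups overlapped, and the sign of both turned with length and GC trends removed (-0.07 and 0.0033).

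**Figure D3:**
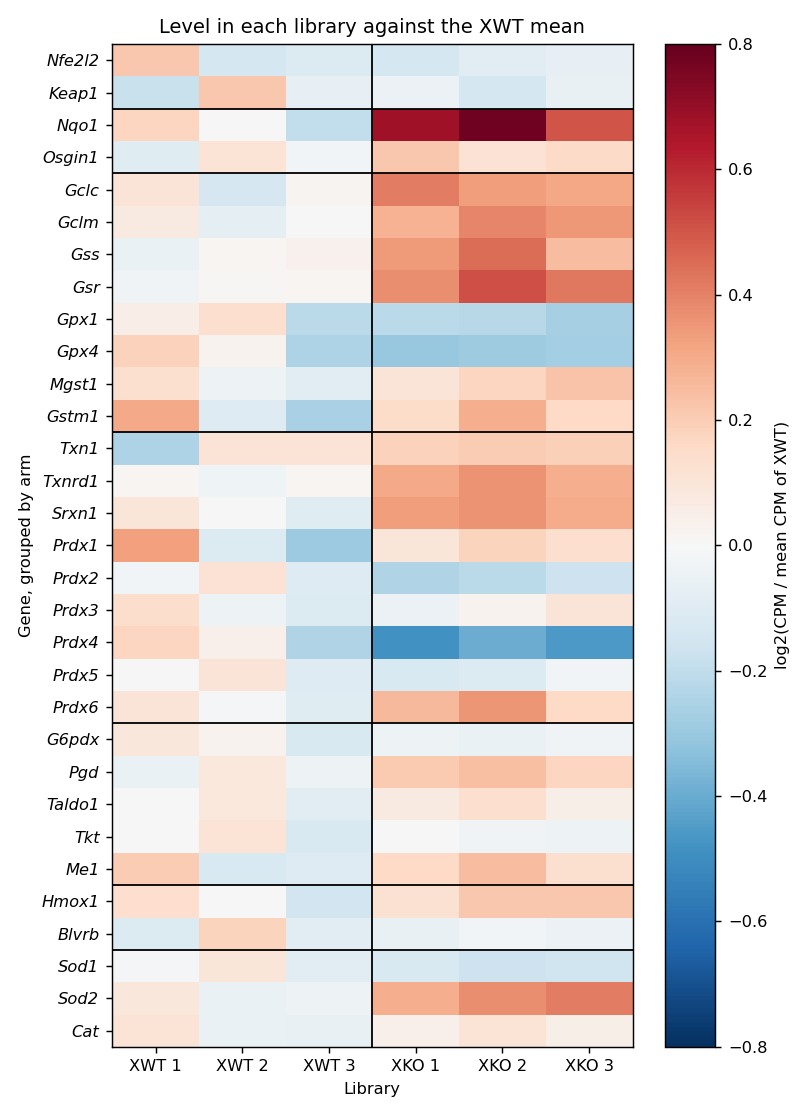
Level of each gene in each library as log2 of its CPM over the mean CPM of the 3 XWT libraries, in rows grouped by arm (black lines) and columns by library. The rows of Nqo1, Gclc, Gclm, Gss, Gsr, Txnrd1, Srxn1 and Sod2 are red across XKO 1 to 3, Prdx4 is blue there, and Prdx1, Gstm1 and Nfe2l2 show a red XWT 1.

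NADPH feeds glutathione reductase, thioredoxin reductase and NQO1, and comes mainly from the pentose phosphate pathway and malic enzyme. None of the 5 genes of this arm was called. Pgd, 6-phosphogluconate dehydrogenase, came nearest, at 782.9, 861.5 and 788.9 CPM in XWT and 936.0, 959.3 and 912.8 CPM in XKO. All XKO values were above all XWT values, with a log2 fold change of 0.21 (interval 0.06 to 0.35, edgeR adjusted p = 0.0528). It was called higher in 9 of 16 alternative fits, among them DESeq2 (0.21, adjusted p = 0.0193) and limma-voom (0.21, adjusted p = 0.0399).

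G6pdx, the rate-limiting dehydrogenase of the pathway, stood at 334.5, 320.6 and 288.6 CPM in XWT and 306.4, 303.4 and 308.0 CPM in XKO. The XKO values fell inside the XWT range, and the log2 fold change was -0.04 (interval -0.19 to 0.11), turning to 0.03 with library size alone and 0.004 without XWT 1. Ikbkg overlaps G6pdx on the opposite strand with 41.4% of its counts and 418 of its 3080 exon bases shared, and it rose by 0.28 on the log2 scale. The transferases of the non-oxidative branch, Taldo1 and Tkt, had log2 fold changes of 0.08 (interval -0.06 to 0.23) and -0.02 (interval -0.18 to 0.13), and their groups overlapped. Tkt turned positive with library size alone (0.05), without XWT 2 (0.03) and with length and GC trends removed (0.09). Me1, cytosolic malic enzyme, stood at 40.0, 32.0 and 32.4 CPM in XWT and 38.9, 41.4 and 38.1 CPM in XKO, with XWT 1 inside the XKO range. Its log2 fold change of 0.18 was not called (edgeR adjusted p = 0.193), but was without XWT 1 (0.29).

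Heme oxygenase opens heme to biliverdin, iron and carbon monoxide, and biliverdin reductases turn biliverdin into bilirubin. Hmox1, a target of NRF2 that BACH1 represses, stood at 1124, 1027 and 923 CPM in XWT and 1114, 1188 and 1188 CPM in XKO. XWT 1 was just above the lowest XKO library, so the groups overlapped. The log2 fold change was 0.18 (interval 0.02 to 0.35, edgeR adjusted p = 0.127). It was called with library size alone (0.25), without XWT 1 (0.25) and with length and GC trends removed (0.23). Blvrb, biliverdin reductase B, stood at 289.2, 352.8 and 293.8 CPM in XWT and 299.6, 307.2 and 302.2 CPM in XKO. Its log2 fold change of -0.04 (interval -0.21 to 0.13) turned positive with library size alone (0.03), without XWT 2 (0.05) and with length and GC trends removed (0.08).

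Superoxide dismutases turn superoxide into hydrogen peroxide, and catalase breaks that down in peroxisomes. Sod2 (ENSMUSG00000006818, chromosome 17 from 13006846 to 13040063, plus strand), the mitochondrial enzyme and a known target of NF-kB, stood at 326.0, 295.7 and 297.6 CPM in XWT and 375.2, 397.3 and 406.8 CPM in XKO. The groups were clearly apart. Its log2 fold change was 0.36 ± 0.067 (SE; edgeR adjusted p = 0.00324), and it was called without any 1 library (0.33 to 0.40). Sod1, the cytosolic copper-zinc enzyme, stood at 319.9, 345.7 and 302.5 CPM in XWT and 296.3, 287.3 and 289.5 CPM in XKO. Although its groups did not overlap, the log2 fold change of -0.15 was not called (edgeR adjusted p = 0.151), except without XWT 3 (-0.19). Cat stood at 761.7, 681.3 and 678.8 CPM in XWT and 726.4, 763.5 and 729.3 CPM in XKO, with overlapping groups and a log2 fold change of 0.06 (interval -0.08 to 0.21).

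**Figure D4:**
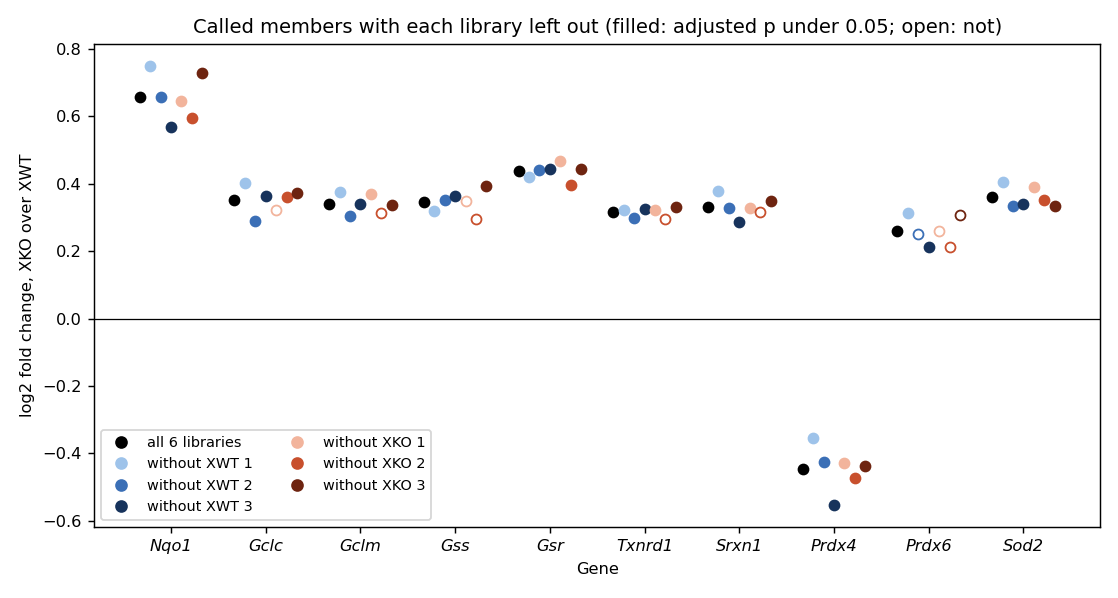
Log2 fold change of the 10 called genes in the edgeR fit with all 6 libraries (black) and with each library left out (colours); filled points had an adjusted p under 0.05 and open points did not. Every value keeps its sign, and Nqo1, Gsr, Prdx4 and Sod2 are filled throughout.

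Of the 10 called genes, 4 (Nqo1, Gsr, Prdx4 and Sod2) were called without any 1 library. The count of genes that rose was 9 with all libraries, 4 without XKO 2, 6 without XKO 1 and 14 without XWT 1, and the count that fell was 1 and became 5 without XWT 3. Of the 21 genes not called, 8 had an unadjusted p under 0.05: Mgst1, Txn1, Pgd and Hmox1 with positive and Gpx1, Gpx4, Prdx2 and Sod1 with negative fold changes. The authors' deposited table has 10 of the 31 higher and 4 lower at the same threshold. It holds the 10 genes called here and in addition Pgd (log2 fold change 0.20), Gpx1 (-0.24), Gpx4 (-0.29) and Prdx2 (-0.21).

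Levels between genes were compared per length, with the FPKM values that the authors deposited. These are counts divided by gene length and by a library total that is scaled between libraries. Gpx1 was the highest in XWT at 936 FPKM, followed by Prdx1 at 748 and Hmox1 at 584, and in XKO Prdx1 was the highest and Gpx1 the second. Gpx1, with 801 to 1033 FPKM across XWT, and Prdx1, with 606 to 942, overlapped. A gap followed between Hmox1 (lowest XWT value 522.5 FPKM) and Taldo1 (highest 313.8). Of the 30 neighbouring pairs in the XWT order, 21 had overlapping ranges, so most of the order is not resolved. The genes that rose were not the most abundant. Srxn1 ranked 11 in XWT, Txnrd1 17, Gclm 18, Gsr 20, Prdx6 23, Sod2 24, Gclc 27, Nqo1 28 and Gss 31, the last at 3.64 to 3.84 FPKM.

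**Figure D5:**
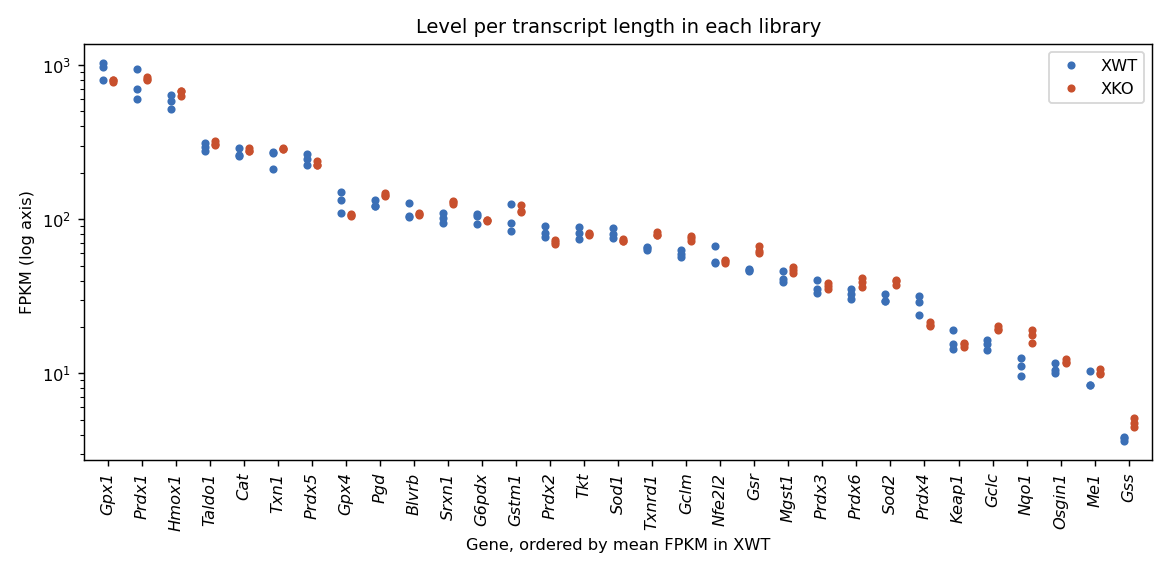
Level per length (FPKM, log axis) of the 31 genes in each library, ordered by the mean of the XWT libraries (blue), with XKO in red. Gpx1, Prdx1 and Hmox1 stand above all others and Gss is the lowest in both genotypes.

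Other genes of the same pathways were read from a list of 148 rows by arm, of which 131 were tested. In that list 18 were higher and 19 lower in XKO (13.7% and 14.5%), with a median log2 fold change of -0.08. Both directions were above the shares of all tested genes given above. This list was also chosen with earlier results of these data known, so its shares are a description and not a test. The libraries used moved these counts: 8, 9 and 8 were higher without XKO 1, 2 and 3, and 12, 44, 10, 10 and 11 were lower without XWT 2, XWT 3, XKO 1, XKO 2 and XKO 3. Groups did not overlap for 53.4% of these genes and 54.8% of the 31, against 36.2% of all tested genes.

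Among partners and adaptors of NRF2, 3 of 15 tested genes (20.0%) were higher and 0 lower, against 6.00% and 7.99% of all tested genes. Sqstm1, which encodes the p62 protein that can pull KEAP1 into autophagy and is itself an NRF2 target, rose from 1030 ± 28.4 to 1527 ± 7.59 CPM (SD, n = 3 each; log2 fold change 0.57, edgeR adjusted p = 3.73e-05). The small MAF genes Maff and Mafg rose by 0.71 and 0.30 on the log2 scale. Bach1, a repressor at the same elements, had a log2 fold change of 0.10 (adjusted p = 0.338) and was chosen for mention after its value was seen. Further NRF2-linked genes were higher in 5 of 13 (38.5%) and lower in 1 (7.69%). The glycine transporter gene Slc6a9 rose by 0.87, the reductase gene Ptgr1 by 0.42 and the glutathione-conjugate exporter gene Abcc1 by 0.26, and the cytochrome gene Cyp1b1 fell by 3.19 on the log2 scale.

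In the wider glutathione list 5 of 37 tested genes (13.5%) were higher and 6 (16.2%) lower, against the same 6.00% and 7.99%. Slc7a11, the cystine importer that supplies cysteine for GCLC, rose from 40.3 ± 7.58 to 97.1 ± 2.47 CPM (SD, n = 3 each; log2 fold change 1.27), and the transferase gene Gsta3 rose by 0.40. The secreted peroxidase gene Gpx3 fell by 0.77 and the ER peroxidase gene Gpx8 by 3.30 on the log2 scale. Gpx8 was at a mean of only 1.31 CPM in XWT and 0.13 CPM in XKO. In the thioredoxin list 0 of 18 were higher and 7 (38.9%) lower. Txnip, whose product binds and inhibits thioredoxin, fell by 0.66, the stress-induced sestrin genes Sesn1 and Sesn3 by 0.42 and 0.69, and the methionine sulfoxide reductase gene Msrb3 by 2.77 on the log2 scale. The largest falls in these lists were in Cyp1b1, Gpx8, Msrb3, Aldh1l2 and Sod3. The summed stromal markers of the same groups were 699.5 to 813 CPM in XWT and 68.0 to 83.7 CPM in XKO. Whether stromal cells had a part in these falls was not tested.

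Further NADPH-linked genes were higher in 2 of 16 (12.5%) and lower in 1 (6.25%), against 6.00% and 7.99% of all tested genes, so the share that was lower did not exceed that of all genes. Mthfd2 and Mthfd1l, enzymes of mitochondrial folate metabolism, rose by 0.30 and 0.37, and the mitochondrial folate dehydrogenase gene Aldh1l2 fell by 2.01 on the log2 scale. In the heme list 3 of 18 (16.7%) were higher and 2 (11.1%) lower. The heme exporter gene Flvcr1 rose by 0.37 and Alas1, the first enzyme of heme synthesis, by 0.24, while the transporter gene Abcg2 fell by 0.39 and the heme synthesis gene Urod by 0.24 on the log2 scale. Of 14 tested genes around superoxide, 0 were higher and 2 (14.3%) lower, namely the extracellular dismutase gene Sod3 (-2.96) and the mitochondrial carrier gene Ucp2 (-0.24).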

How the data were processed

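The 31 genes, the other gene lists and the tests were chosen with earlier results of these data known. The authors deposited 1 table for the series. Its count columns, as the header names them, give whole reads for each Ensembl gene. The FPKM columns the authors deposited are scaled between libraries (the totals they imply are 0.998 to 1.01 times the TMM-scaled library sizes) and entered no test. Also deposited were group means of scaled counts (a signal, not used) and the authors' log2 fold change with its raw and adjusted p-value. Bowtie 0.12.2 and the builds mm8 and mm10 come from the submitters' processing notes. No source used here names the counting program, the annotation or the strand setting. All 31 genes had the same coordinates in GENCODE M21 (GRCm38).

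Counts were fitted with edgeR 4.0.16 in R 4.3.3: filterByExpr (14333 of 54532 genes kept), TMM scaling and a robust quasi-likelihood test without a block (4 residual degrees of freedom, threshold 0.05). At 28354866 to 30891729 counts per library the biological coefficient of variation was 0.0865. Standard errors are the fold change over the square root of F. The fit was tested on simulated counts of 14102 genes, with 50 genes changed at each size. It recovered 26%, 74%, 82% and 100% of changes of 1.25, 1.5, 2 and 4-fold, with 15 false calls. In the data 2005 genes were called, far more than were changed in the simulation, so these shares may differ in the data. Alternatives were other scalings and filters, DESeq2 1.42.0, limma-voom (limma 3.58.1), a replicate block, removal of the length trend and leaving out each library. Quality weights, removal of length and GC trends (GC known for 99.9% of tested genes) and the authors' deposited table were added after the data were seen. Named are all 31 genes, Xbp1 and Lyz2, per arm of the wider list up to 4 called genes of smallest p, and up to 3 genes of highest mean CPM per marker list. Bach1, the genes that overlap or copy a member (Acss2, Junb, Rnaseh2a, Ikbkg, Gpx4-ps2) and the markers named for their low levels lie outside that rule. They were chosen after their values were seen.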

Additional observations from a re-analysis of the deposited data

How the results depend on the processing

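All 10 called genes kept their direction and their call under all 8 other scalings, filters, tests and designs that used every library, with quality weights, with length and GC trends removed and in the authors' deposited table. The count of the 31 that were lower was 4 without the filter on low counts, with DESeq2, with the length trend removed, with quality weights and in the authors' deposited table, and 1 in the other fits with every library except the replicate block. Leaving out 1 library gave 4 to 14 of the 31 higher and 1 to 5 lower. Over all tested genes 860 were higher and 1145 lower, and leaving out 1 library gave 274 to 2073 higher and 532 to 2164 lower. The lower count was 749 with library size alone, where 60.7% of the called genes were higher against 42.9%, and 730 with a filter of 5 CPM in 3 libraries, which tests fewer genes. Of the other pathway genes 8 to 23 were higher and 10 to 44 lower without 1 library, 11 lower with that filter and 29 lower with quality weights. The cause of these moves was not tested.

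Same-numbered XWT and XKO libraries did not deviate together (correlations of -0.043, -0.036 and -0.054 across genes), so the numbers were not taken as pairs. With the replicate block 9 of the 31 were higher and 2 lower, the second being Gpx4, and 1068 and 1127 of all genes. No library correlated best with its own number.

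Some log2 fold changes near 0 changed sign, and none of these was called under any setting. With library size alone they were G6pdx (0.0308), Tkt (0.0461) and Blvrb (0.0271), with the length trend removed Prdx3 (-1e-04), and with length and GC trends removed Keap1 (0.0614), Prdx3 (-0.0747), Prdx5 (0.0033), Tkt (0.0896) and Blvrb (0.0836). Without 1 library Nfe2l2 ranged from -0.1616 to 0.024, Keap1 from -0.1649 to 0.0375, Prdx3 from -0.0233 to 0.1024, G6pdx from -0.099 to 0.004, Tkt from -0.0823 to 0.0326 and Blvrb from -0.0959 to 0.0543. The cause was not tested. With 3 libraries per genotype, a difference as small as that of most of the 21 genes not called may have been missed.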
